A study of Mus musculus with 18 samples.

Results

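The regions described here were accessible chromatin regions of haematopoietic stem cells (HSC) that were called after 5-fluorouracil and in none of the other groups of the study. They were chosen by position alone. Overlapping rows of each deposited peak list were merged into regions, and a region of the 5-fluorouracil list was kept where it shared no base with a region of the other 5 lists. That left 2598 of the 71363 regions of the 5-fluorouracil list, which is 3.64% of it, in a union of 94178 regions over the 6 lists. Open chromatin was profiled by ATAC-seq, in which the Tn5 transposase cuts and tags accessible DNA, in 18 mouse samples. The 5-fluorouracil group held 4 samples of wild-type HSC, from mice 16 weeks old given 150 mg/kg of the drug in 3 injections at intervals of 3 weeks. The vehicle group held 4 samples of wild-type HSC of the same age, given PBS on the same schedule. The groups without injection were 8 weeks old. They were 2 samples of HSC and 2 of cells labelled HPC, both Kmt2c f/f; Vav-Cre, and 2 samples of wild-type HSC and 4 of wild-type HPC. Vav-Cre deletes the floxed gene throughout the blood system, and all 5-fluorouracil and vehicle samples were labelled wild type. Each list covers all the samples of its group, so the members have no value per sample and no test over samples could be made. The intervals given with shares are 95% Wilson intervals over regions, cover counting error only, and treat neighbouring regions as independent.

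5-Fluorouracil is a pyrimidine analogue that blocks thymidylate synthesis and kills dividing blood cells, and dormant stem cells that survive it are drawn into division to refill the marrow. Accessible chromatin marks promoters and enhancers that transcription factors hold open. Enhancers differ more between cell states than promoters do, and AP-1, the Fos and Jun dimers, is known in many tissues to act at enhancers that open on stimulation.

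Being in 1 list was not particular to the 5-fluorouracil group. The vehicle list had 8227 such regions of 80100, or 10.3%. Among the lists without injection the share was 0.601% in Kmt2c-deleted HSC, 2.35% in Kmt2c-deleted HPC, 0.135% in wild-type HSC and 6.98% in wild-type HPC. The 5-fluorouracil and vehicle lists were the longest, and read depth is unknown. A list holds only what passed the authors' threshold, so absence from it does not show closed chromatin. Of the 71363 regions of the 5-fluorouracil list, 4002 had no match in the vehicle list, and 64.9% of those (63.4 to 66.4) had none elsewhere either. A further 30.0% of the 4002 (28.6 to 31.4) overlapped a region of wild-type HPC, 19.5% one of Kmt2c-deleted HPC, 6.77% one of Kmt2c-deleted HSC and 2.37% one of wild-type HSC, and a region may be in several of these. The HSC genes Mecom, Hlf, Meis1, Procr, Slamf1, Fgd5, Tek, Kit and Vwf each had a region at a gene end in the 5-fluorouracil list and in the vehicle list. Of the 10 HSC genes checked, these included, 8 had one in each of wild-type HSC, Kmt2c-deleted HSC and wild-type HPC. In Kmt2c-deleted HPC the number was 7, so the check does not tell HSC from HPC. Of 16 markers of stroma and endothelium, 9 had one in the 5-fluorouracil list and 11 in the vehicle list, and of 14 neutrophil markers, 3 and 4 in the same order. The counts were equal in the lists, 5-fluorouracil and vehicle alike, for T and NK cells (10 of 18), mature B cells (5 of 12), macrophages (7 of 16) and mast cells, basophils and eosinophils (5 of 13).

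Sequence was at hand for gene starts, so the members that lie there are described first. Start windows run from 250 bp before to 50 bp after an annotated start, and are RefSeq sequences of GRCm38.p6. They were at hand for 17491 protein-coding genes, against 21883 in the gene table, so some gene starts were not searched. A total of 63 members overlapped the windows of 63 genes, 38 of them protein-coding, and 15 protein-coding windows were covered whole. Of these 15, the 4 with the highest −log10 p, the peak caller's measure of evidence, are printed 5′ to 3′ on the strand of the gene. Capitals mark matches, on both strands, to the 15 motifs searched.
Oprl1, chr2:181714766-181715065, plus strand: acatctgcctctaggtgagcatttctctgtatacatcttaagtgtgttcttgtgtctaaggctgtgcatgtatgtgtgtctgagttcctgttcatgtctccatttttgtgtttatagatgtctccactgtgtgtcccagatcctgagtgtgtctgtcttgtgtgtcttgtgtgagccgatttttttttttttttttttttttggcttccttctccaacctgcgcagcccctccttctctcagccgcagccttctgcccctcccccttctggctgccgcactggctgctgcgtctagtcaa
Calr3, chr8:72435107-72435406, minus strand: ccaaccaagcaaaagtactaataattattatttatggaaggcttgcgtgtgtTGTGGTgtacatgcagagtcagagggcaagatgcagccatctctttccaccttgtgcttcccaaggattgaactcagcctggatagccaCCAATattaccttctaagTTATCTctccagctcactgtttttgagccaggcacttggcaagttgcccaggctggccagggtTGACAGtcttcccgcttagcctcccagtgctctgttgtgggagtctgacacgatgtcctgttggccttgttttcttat
Fcer2a, chr8:3690812-3691111, minus strand: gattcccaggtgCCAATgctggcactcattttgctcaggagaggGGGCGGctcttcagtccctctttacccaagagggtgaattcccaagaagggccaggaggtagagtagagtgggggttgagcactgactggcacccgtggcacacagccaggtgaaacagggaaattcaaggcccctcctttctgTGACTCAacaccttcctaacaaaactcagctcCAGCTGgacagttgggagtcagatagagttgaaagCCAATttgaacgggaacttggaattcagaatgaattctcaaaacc
Cdkn2a, chr4:89282143-89282442, minus strand: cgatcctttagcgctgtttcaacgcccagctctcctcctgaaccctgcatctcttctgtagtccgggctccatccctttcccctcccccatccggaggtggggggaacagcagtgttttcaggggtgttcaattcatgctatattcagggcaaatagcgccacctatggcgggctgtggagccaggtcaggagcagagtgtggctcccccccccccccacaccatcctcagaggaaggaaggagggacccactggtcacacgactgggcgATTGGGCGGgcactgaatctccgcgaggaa
Oprl1, the receptor of the neuropeptide nociceptin, had no match to the motifs, and its member had a −log10 p of 38.6 and a fold enrichment of 6.01, which is how many times its summit stood above the local background. The member at Calr3, a calreticulin of the testis, had the same pair of values, and its window matched the RUNX, GATA, MEIS and NFY motifs. Fcer2a, the low-affinity IgE receptor CD23 of B cells, was covered by a region of 462 bp with a fold enrichment of 5.74, and its window holds 1 AP-1 match. Cdkn2a, which encodes the cell cycle inhibitors p16Ink4a and Arf, was covered at the downstream of its annotated starts by a region of 723 bp with a fold enrichment of 5.79. The nearest region of any other list lay 3.08 kb from the Cdkn2a member and 143036 bp from the one over the start of Aoah, which encodes an enzyme that inactivates bacterial lipopolysaccharide.

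The start windows under members were poor in CG dinucleotides, the mark of CpG island promoters. The median was 7 per window under members, against 21 under the other regions of the 5-fluorouracil list, and 10 under regions found only with vehicle. Windows with 15 or more made up 33.3% (22.9 to 45.6) of the 63 under members, 69.7% (68.9 to 70.5) of the 12660 under other 5-fluorouracil regions, 40.0% (34.8 to 45.5) of the 320 under regions found only with vehicle, and 34.7% of all 27025. The 700 windows under weak shared regions, those in the 2 weakest deciles of the 5-fluorouracil list by −log10 p, had a median of 15. The windows under members were close in CG content to start windows at large, and poorer than those under shared regions of low strength.

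AP-1 matches were more frequent in the windows under members than in every comparison set. The motif searched was TGAGTCA, whose other strand reads TGACTCA. It was found in 12 of 63 windows under members, or 19.0% (11.2 to 30.4), against 3.68% (3.37 to 4.02) of windows under other 5-fluorouracil regions, 5.43% (3.98 to 7.36) under their 2 weakest deciles, 5.00% (3.10 to 7.97) under regions found only with vehicle and 5.20% of all windows. Among windows with fewer than 15 CG dinucleotides the shares were 26.2% (15.3 to 41.1) of 42 under members, 6.59% of 3837 under other 5-fluorouracil regions, 6.25% of 192 under regions found only with vehicle and 6.71% of all 17656. Within the bases that the regions cover, there were 10 matches in 13.6 kb under members, or 0.735 per kb, against 0.127 per kb under other 5-fluorouracil regions and 0.194 per kb under regions found only with vehicle. The counts are small, and AP-1 was 1 of 15 motifs compared. The 10 matches stand at 9 genomic sites, since the windows of Ivl and Gm35639, genes on opposite strands, share a site. The sites are printed with 10 bases on each side, on the strand of the gene, with the match in capitals.
Gm31452, chr13:107063599-107063625: ccttgactgcTGAGTCAccggctgcag
Mark2, chr19:7295662-7295688: ttagcacatcTGAGTCAcacgatctgc
Ivl and Gm35639, chr3:92573835-92573861, strand of Ivl: agttatcagaTGACTCAgaaaggaagg
Cgref1, chr5:30945644-30945670: tgcctccatcTGAGTCAcagtgacaca
Gm51489, chr7:75822544-75822570: gtcatgacacTGAGTCAtgtggggaga
Fcer2a, chr8:3690907-3690933: ctcctttctgTGACTCAacaccttcct
Gm38326, chr3:60788187-60788213: ggggaagtaaTGACTCAagctgcttcc
Gm38748, chr5:146857813-146857839: aaccccagccTGACTCActcaggcttc
1700100I10Rik, chr14:114946029-114946055: tgtgaatagcTGACTCAgtaatttcta
Of the 10 windows, 4 belong to protein-coding genes. Ivl encodes involucrin, a protein of the skin's cornified envelope, and its member lay 62.5 kb from the nearest region of another list. Mark2 is a kinase of cell polarity, and its member, with a fold enrichment of 2.82, lay 0.336 kb from one. The remaining windows belong to long non-coding RNA genes.

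For none of the other 14 motifs did the interval under members lie clear of that under regions found only with vehicle. AP-1 was not alone against the 2 weakest deciles of other 5-fluorouracil regions. There the intervals also lay clear for GATA and IRF, each at 6.29% (4.72 to 8.33), and for E2F, at 0.429% (0.146 to 1.25). Matches to the GATA motif, spelled AGATAA, were in 15.9% (8.86 to 26.8) of windows under members, 5.85% under other 5-fluorouracil regions, 32 of 320 under regions found only with vehicle and 11.3% of all. IRF (GAAANNGAA) was in 15.9% (8.86 to 26.8) under members, 12.8% under regions found only with vehicle and 8.56% of all. PU.1 (GAGGAAGT) was in 5 of 63, or 7.94% (3.44 to 17.3), against 1.88% and 3.29% in the same sets. RUNX (TGTGGT or TGCGGT) was in 20.6% (12.5 to 32.2) under members and in 22.4% of all windows, so the interval of the members holds the share of all. The GC box (GGGCGG) was in 39.7% (28.5 to 52.0) under members, 64.3% under other 5-fluorouracil regions and 35.6% of all. CTCF (CCACNAG) was in 6.35% (2.50 to 15.2) under members and 15.2% of all. E2F (TTTCCCGC), found in genes of DNA replication, was in 3 of 63 windows under members, or 4.76% (1.63 to 13.1), and in 1.10% of all. The shares under members were 7.94% for ETS (ACCGGAAG or ACAGGAAG), 4.76% for CRE (TGACGTCA), 14.3% for C/EBP (TTGCNNAA), 30.2% for E-box (CAGCTG or CACGTG), 9.52% for NF-kB (GGGNNTTCC), 12.7% for MEIS (TGACAG) and 31.7% for NFY (CCAAT).

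**Figure D1:**
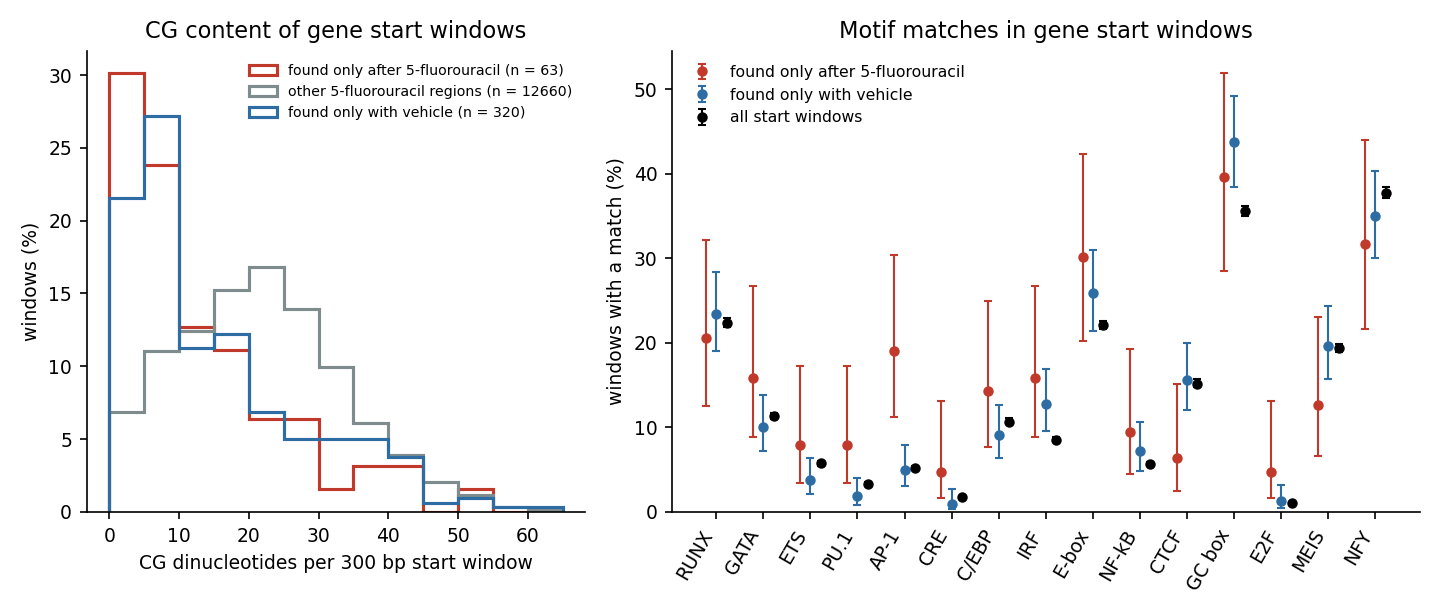
Left, distribution of CG dinucleotides per 300 bp gene start window, as a percentage of windows, under regions found only after 5-fluorouracil (n = 63), other 5-fluorouracil regions (n = 12660) and regions found only with vehicle (n = 320). Right, share of start windows with a match to each motif, with 95% Wilson intervals, where AP-1 stands at 19.0% under members, against 5.00% under regions found only with vehicle and 5.20% of all windows.

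The members were weak regions of their own list. Their median fold enrichment was 4.58 (quartiles 3.95 and 5.52), against 10.8 (6.72 and 16.8) for the other 68765 regions of the 5-fluorouracil list. Their median −log10 p was 28.0, against 159. They were 336 bp wide at the median, against 651 bp, and 73.5% came from a single row of the list, against 40.7%. Regions found only with vehicle were weak in the same way, with a median fold enrichment of 4.95, a −log10 p of 32.4 and a width of 384 bp. When the 5-fluorouracil list was cut into deciles by −log10 p, 1685 members fell in the weakest decile, where they made up 23.6% (22.6 to 24.6) of regions, and 651 in the next, where they made up 9.12%. These 2 deciles held 89.9% of members, and the upper 5 held 7 of the 2598. Within the weakest decile members were still somewhat narrower, at 304 bp against 347 bp for its other regions. The rule itself favours this, because a narrower region has fewer bases that could be shared with another list. All but 1 of the members had a deposited q-value under 0.05.

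Most members had a neighbour in another list within a few kb. The median distance to the nearest region of any other list was 3.59 kb (quartiles 1.18 and 10.3 kb), and 597 members, or 23.0% (21.4 to 24.6), had one within 1 kb. The nearest such region belonged to the vehicle list for 76.3% of members and to wild-type HPC for 14.7%. By list, the median distance was 4.08 kb to vehicle HSC, 6.15 kb to wild-type HPC, 8.12 kb to Kmt2c-deleted HPC, 8.47 kb to Kmt2c-deleted HSC and 10.2 kb to wild-type HSC, an order that follows the lengths of the lists, from longest to shortest. Regions found only with vehicle stood farther out, at 5.46 kb from any other list, with 16.1% (15.3 to 16.9) within 1 kb. Members within 1 kb of a region of another list had a median fold enrichment of 3.89, and 24.5% were under 3. Among the 628 that lay over 10 and up to 100 kb from one, the median was 5.00 and none was under 3, and 41 members stood more than 100 kb away.

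At the limit of the rule, the smallest gap was 26 bp, at a member 52.7 kb from Pomgnt2 with a fold enrichment of 2.00. The next had gaps of 42 bp, inside Tinagl1 and inside Fli1, an ETS factor of blood stem cells, with fold enrichments of 2.83 and 2.29. Just outside, the smallest overlaps that kept a region from being a member were 20 bp, 176 kb from any protein-coding gene, and 26 bp, inside Dock9, with fold enrichments of 4.38 and 1.64. There were 65 members with a gap of 100 bp or less, and 8 other regions whose largest overlap was 100 bp or less.

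**Figure D2:**
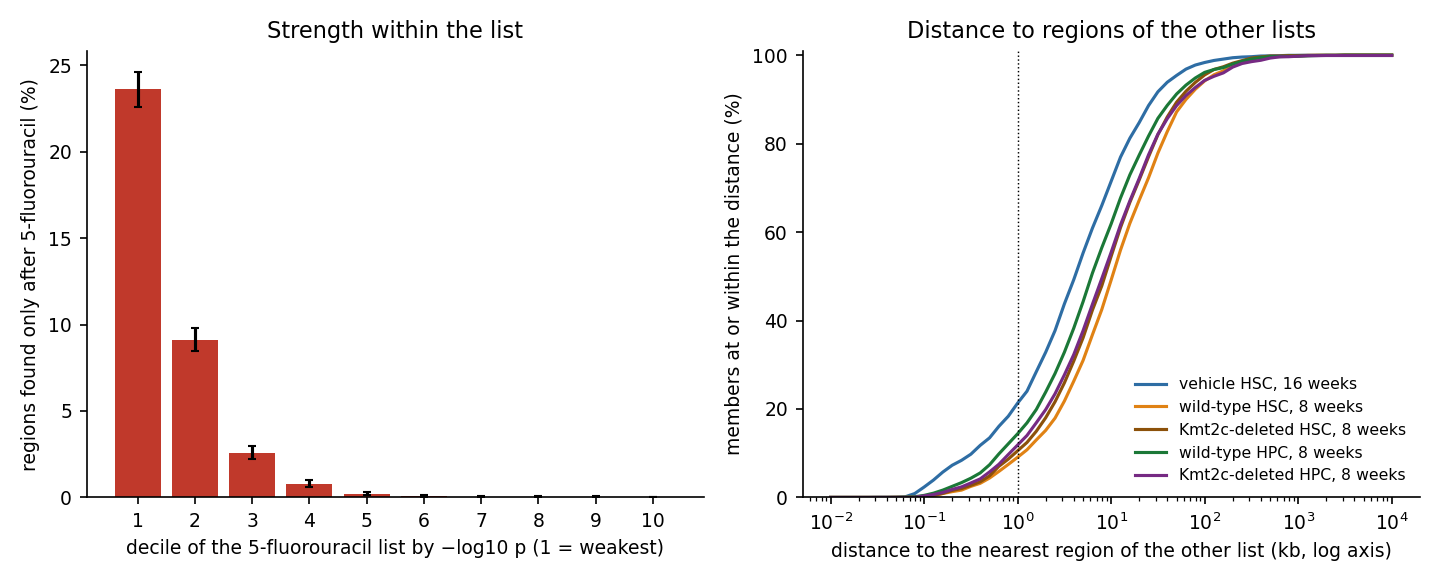
Left, share of regions found only after 5-fluorouracil in each decile of the 5-fluorouracil list, ordered by −log10 p, with 95% Wilson intervals: 23.6% in the weakest decile and 9.12% in the next. Right, percentage of the 2598 members that have a region of each other list at or within a distance (kb, log axis), with a dotted line at 1 kb, where the vehicle curve stands at 21.3% and the wild-type HSC curve at 9.08%.

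The members lay away from gene ends. An end of a protein-coding gene was within 1 kb of 6.77% of members (5.87 to 7.81), against 21.5% (21.2 to 21.8) of the other 5-fluorouracil regions, and 7.74% (7.18 to 8.34) of the regions found only with vehicle. Among those other regions the share was 10.4% in the weakest decile and 49.6% in the strongest. When the other 5-fluorouracil regions were weighted to the members' strength, 10.7% were at a gene end, and within the weakest decile the share was 7.89% (6.70 to 9.28) of members, against 10.4% (9.58 to 11.2) of the others. Measured to annotated start sites, with chromosome 18 left out, 4.24% of members (3.52 to 5.10) were within 1 kb, against 17.5% of other 5-fluorouracil regions, or 7.45% at the members' strength, and 5.02% of regions found only with vehicle. The members' median distance to a gene end was 21.8 kb, against 12 kb for the other 5-fluorouracil regions and 22.9 kb for regions found only with vehicle. Gene bodies held 57.9% of members (56.0 to 59.8), against 62.7% of the others, or 57.9% at the members' strength. For 9.31% of members (8.26 to 10.5) no protein-coding gene lay within 100 kb, against 6.27% of the others, or 8.16% at the members' strength, and 10.2% of regions found only with vehicle. Members close to a region of another list were more often at gene ends: 15.1% (12.4 to 18.2) of those within 1 kb of one, and 3.03% (1.95 to 4.68) of those over 10 and up to 100 kb away.

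**Figure D3:**
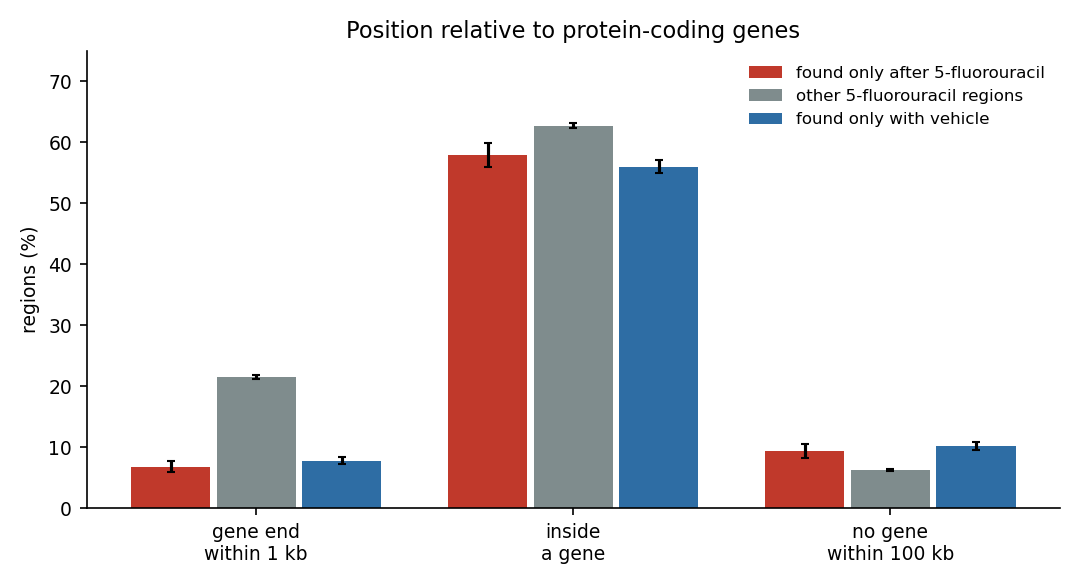
Share of regions with an end of a protein-coding gene within 1 kb, inside a gene, and with no gene within 100 kb, with 95% Wilson intervals, for regions found only after 5-fluorouracil, other 5-fluorouracil regions and regions found only with vehicle. At gene ends the bars stand at 6.77%, 21.5% and 7.74%.

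Members were spread over all chromosomes. They made up between 2.50% of the 5-fluorouracil regions on chromosome 7 and 6.06% (4.97 to 7.36) on chromosome X, leaving out Y with 9 regions. Regions found only with vehicle were also most frequent on chromosome X, at 14.3%. Chromosome 6 had 190 members, or 4.65% (4.05 to 5.34), and chromosome 3 had 175, or 4.70%. Over 238 windows of 10 Mb with at least 100 regions the median share was 3.57%, with a highest value of 10.6% on chromosome X and 9.70% on chromosome 16, in the window that starts at 70 Mb and holds Robo1. A total of 227 members, or 8.74% (7.71 to 9.89), had another member beside them in the list, on either side. Of the regions found only with vehicle, 23.9% (23.0 to 24.8) had another such region beside them. Members were 3.64% of their list and regions found only with vehicle 10.3% of theirs. Some such neighbours arise from these numbers alone, and clustering was not tested. The longest run was 4 members over 215 kb on chromosome 6, at Fezf1 and Cadps2, and runs of 3 stood at St8sia4, Gm11677, Ezh2 and Sox5, among others.

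Members were assigned to the protein-coding gene whose body they lay in or nearest to, up to 100 kb, which does not show the gene they act on. They fell to 1950 genes, of which 1626 had 1 member, 324 had 2 or more and 54 had 3 or more. Genes with 3 or more members had a median length of 263 kb, against 23.5 kb for all genes with a 5-fluorouracil region, so the count favours long genes. Of the 1950 genes, 1010 also had regions found only with vehicle and 940 had none. Among the 12 genes with most members, 5 were on chromosome 6. These genes were picked by their count of members, which favours that count over the one found only with vehicle. The counts given side by side for them are therefore description only. Over the whole lists, 8227 regions were found only with vehicle, against 2598 members.

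Ezh2, the enzyme of Polycomb repressive complex 2 that methylates lysine 27 of histone H3, had the largest share of members among these 12. Of its 5 regions in the 5-fluorouracil list, 4 were members, and each other list had 1 region at the gene. That region was the one over the start of Ezh2, which all 6 lists shared. These counts depend on the assignment to genes. In the stretch mapped around Ezh2 the 5-fluorouracil list had 10 regions and the vehicle list 6. Shared regions there that were not assigned to Ezh2 include 1 in both lists just beyond the far end of the gene, 66.977 to 67.714 kb from its start. The members at chr6:47532448-47532869, chr6:47561268-47561885 and chr6:47565557-47565998 lay inside the gene, and a member at chr6:47621052-47621452 lay 25.8 kb outside it. Their fold enrichments were 6.86, 6.43, 4.93 and 4.08 in the same order. The nearest region of another list was 4.18, 32.2, 28.1 and 10.2 kb away. Their −log10 p was at most 48.7.

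Fezf1, a zinc finger repressor of the developing forebrain, had 3 members and no region of any other list assigned to it. They stood at chr6:23247432-23248022 and chr6:23249494-23249905 inside the gene and at chr6:23255224-23255571, which is 4.29 kb outside it, with fold enrichments of 4.59, 5.61 and 4.29. A region found only with vehicle lay 4.71 kb from the third of them. In all, 40 genes had members and no region in any other list, and Fezf1 was the only one of these with more than 1 member. Fabp4, a fatty acid carrier of adipocytes and macrophages, had the member of highest fold enrichment among them, 9.29, inside the gene and 35.1 kb from the nearest region of another list. It was singled out after its value was seen.

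**Figure D4:**
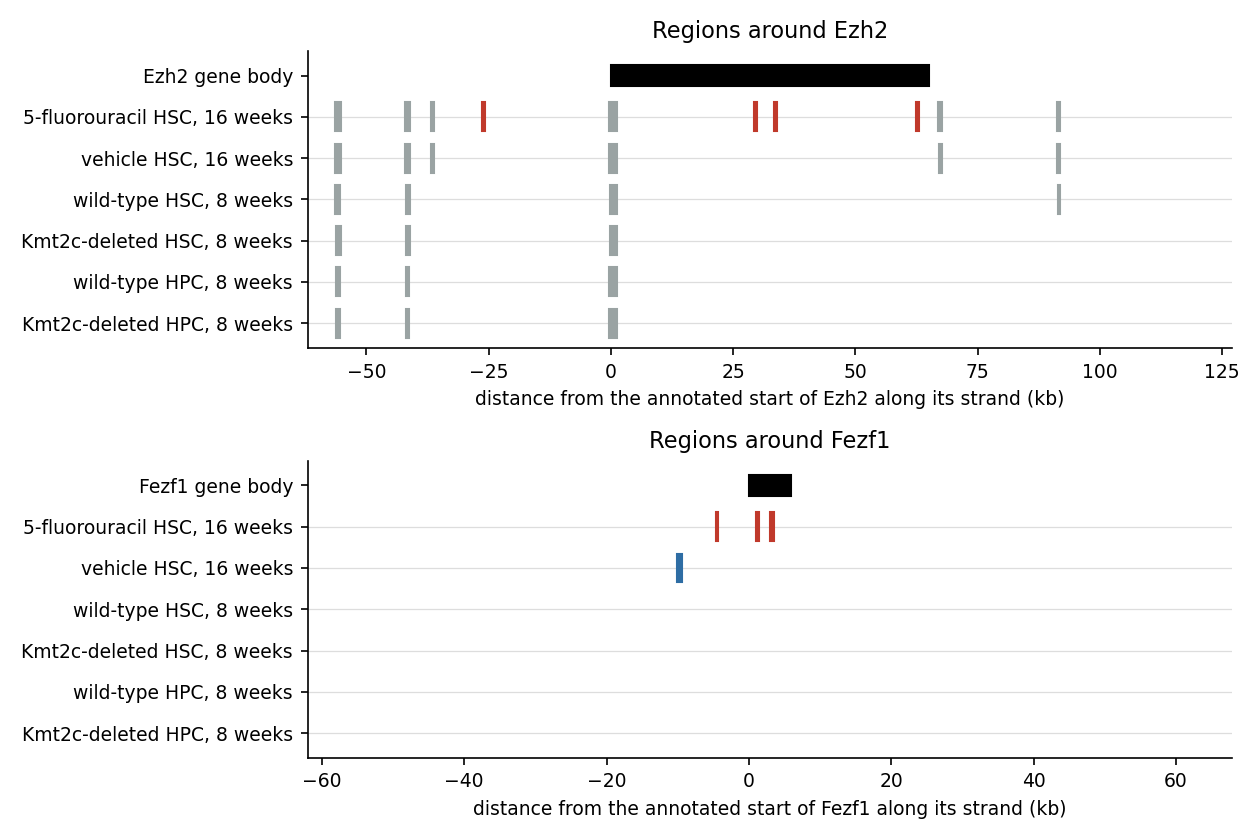
Regions of the 6 lists around Ezh2 (top) and Fezf1 (bottom), by distance in kb from the annotated start along the gene's strand, with the gene body as a black bar. Red marks regions found only after 5-fluorouracil, blue a region found only with vehicle, and grey regions shared by at least 2 lists. Narrow regions are drawn wider than scale so that they can be seen. The 4 red regions at Ezh2 and 3 at Fezf1 have no counterpart in the rows below.

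Sox5, a factor of cartilage and neuron development, had most members, 8 of its 41 regions in the 5-fluorouracil list, and 2 regions found only with vehicle among 34 in that list. The gene is 954 kb long. Fold enrichment ran from 4.15 to 9.58 over the 8, and the nearest region of another list was between 0.859 and 106 kb away. Robo1, a receptor of the guidance cue Slit, had 6 members of 16 regions after 5-fluorouracil, and 2 found only with vehicle among 12. Its strongest member, at chr16:72695846-72696192 inside the gene, had a fold enrichment of 8.51 and lay 24.6 kb from any other list. Tnfrsf11a, the RANK receptor, had 4 of 11, with 1 of 8 in the vehicle list. Nrf1, nuclear respiratory factor 1, had 4 of 16, with 1 of 13 in the vehicle list, all 4 outside the gene body. Chn2, a Rac GTPase-activating protein, had 5 of 29, with 2 of 26, and Pde10a, a cyclic nucleotide phosphodiesterase, had 4 of 35, with 2 of 32. Pip5k1b, a phosphoinositide kinase, had 4 of 17, with 2 of 17. Sgms1, a sphingomyelin synthase, had 6 of 44, with 5 of 40 in the vehicle list.

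Genes of stem cell self-renewal were among those with most members, but they gathered regions found only with vehicle as well. Etv6, an ETS repressor that adult HSC need in the marrow, had 5 members of 38 regions, against 7 found only with vehicle of 42. Msi2, an RNA-binding protein of self-renewal, had 4 of 33, against 4 of 35. Mecom, which encodes the HSC factor Evi1, had 4 of 41, against 9 of 49. Vwf, a marker of platelet-biased HSC, had 2 of 12, against 1 of 11. Etv6, Msi2 and Mecom are long genes, of 234, 379 and 558 kb. Over the 40 genes of the self-renewal list, members were 24 of 483 regions, or 4.97% (3.36 to 7.29), at 11 genes. That interval holds the 3.64% of all 5-fluorouracil regions. Of the 532 vehicle regions at these genes, 58, or 10.9%, were found only with vehicle, against 10.3% of the whole vehicle list.

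**Figure D5:**
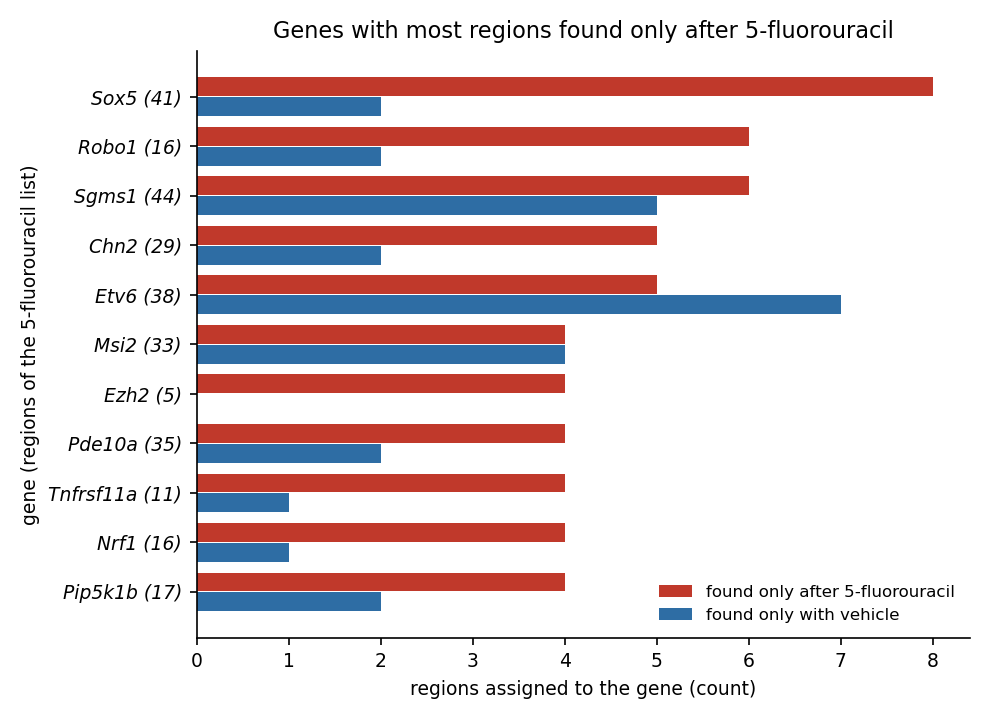
Number of regions found only after 5-fluorouracil (red) and found only with vehicle (blue) assigned to 11 of the 12 genes with most of the former, with the number of regions in the 5-fluorouracil list in parentheses. Ezh2 has 4 and 0, Sox5 has 8 and 2, and Etv6 has 5 and 7. The genes were picked by the red count, which favours it over the blue.

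Over 22 gene lists the share of members was read against the 3.64% of all 5-fluorouracil regions. It was above that in 11 lists and below it in 11, and the interval left it out in 1 list. That list was adhesion, migration and niche, with 18 members of 219 regions, or 8.22% (5.26 to 12.6), a median fold enrichment of 5.15 against 4.58 for all members, and 28 of 234 vehicle regions found only with vehicle. Robo1 held 6 of the 18, and without it the share was 5.91%, or 12 of 203, with an interval that holds 3.64%. The other leading genes were Cd47, the signal that spares cells from phagocytosis, Itga4, a subunit of the integrin VLA-4 that holds HSC in the marrow, and Cd44, a receptor of hyaluronan, with 2 members each of 17, 9 and 12 regions.

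Genes that handle or export fluoropyrimidines had 8 members of 119 regions, or 6.72% (3.45 to 12.7), and 11.7% found only with vehicle. They stood at 6 genes. Abcc4, an efflux pump, had 2, and so had Upb1, which takes part in the last step of pyrimidine breakdown. The efflux pump Abcb1a had 1 member inside the gene, with a fold enrichment of 8.58, and it lay 55.6 kb from any other list. Abcg2, the pump behind the side population of stem cells, had 1 at 4.43, which lay only 94 bp from a vehicle region. Of the 2 members at Abcc4, 1 lay 53 bp from a vehicle region and the other 13.7 kb from one. Lipid and energy metabolism had 11 of 202 regions (5.45%), led by Sgms1, with 1 each at Pparg and Ppargc1a. Polycomb, Kmt2 and other chromatin regulators had 12 of 256 (4.69%, 2.70 to 8.01), with Ezh2 first, Hdac9 with 2, and Arid1a and Dnmt1 with 1 each. Calcium signalling had 17 of 405 (2.64 to 6.62%), with 3 each at Camk2d and Itpr1 and 2 at Itpr2. TGF-beta, Wnt and Notch genes had 14 of 340 (4.12%), with 2 each at Tcf7l1, Smad3, Maml2 and Tgfbr1.

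The intervals of the 3 lineage lists hold the share of all regions. Lymphoid progenitor genes had 11 members of 280 regions (3.93%), with 3 at Foxp1 and 2 at Bcl11a. Myeloid progenitor genes had 5 of 161 (3.11%), of which Runx2 held 3 and Fcgr3 and Cebpa 1 each. Erythroid and megakaryocyte genes had 3 of 98 (3.06%), at Itgb3, Gata1 and Hbb-bt. The member at Gata1, the master factor of the erythroid lineage, was inside the gene with a fold enrichment of 4.29.

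Interferon and antigen presentation had 1 of 112 regions, or 0.893% (0.158 to 4.88), at Cd74, and 7.38% of its vehicle regions were found only with vehicle. Genes of p53, apoptosis and DNA repair had 3 of 151 (1.99%, 0.678 to 5.68), among them 1 at Pmaip1 and 1 at Sesn1. Sesn1, a p53 target that restrains growth signalling, had the highest fold enrichment of the list's members, 8.37. AP-1 and early response genes had 3 of 136 (2.21%), with 2 at Fosl2 and 1 at Egr3. Cell cycle genes had 4 of 140 (2.86%), with 1 at Cdkn2a, 1 at Mybl2 and 2 at Cdkn1b, the inhibitor p27 that holds HSC quiescent, where fold enrichments were 2.10 and 2.26. Interleukin-1, TNF and NF-kB genes had 6 of 174 (3.45%), with 2 at Tnfaip3. The intervals of these 5 lists, the interferon list's included, hold the share of all regions.

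Markers of other cells had few regions in all, and each interval holds the share of all 5-fluorouracil regions. Members were 2 of 58 regions at T and NK cell markers (3.45%), 1 of 19 at mature B cell markers (5.26%), 1 of 52 at macrophage markers (1.92%), 1 of 26 at neutrophil markers (3.85%), and 1 of 43 at markers of mast cells, basophils and eosinophils (2.33%). Markers of stroma and endothelium had 7 of 129 (5.43%, 2.65 to 10.8), with 3 at Runx2, which the myeloid list also holds, and 2 at Pdgfra. Housekeeping genes had 2 of 64 (3.12%), 1 of them at Hprt.

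Of the 12 strongest isolated members, 10 lay inside or near genes of varied function and 2 had no protein-coding gene within 100 kb. Among members with no region of another list within 1 kb, the highest fold enrichment, 22.2 with a −log10 p of 343, stood at chr12:102426221-102426830, inside Lgmn, a lysosomal protease. It ranked 6904 by fold enrichment among the 71363 regions of its list, and the nearest regions were 5.19 kb away in the vehicle list and 9614 bp or more away in each of the other 4. The next, at chr4:108058114-108058663 inside Scp2, a sterol carrier protein, had a fold enrichment of 17.4 and a gap of 12.5 kb. A member 27.6 kb from Fam126a had 13.9, one inside Rubcnl, an autophagy gene, 13.2, and one at chr15:62245426-62245859, 255 kb from the nearest protein-coding gene, 13.0. The rest of the 12 were inside Rnf182 (12.4), Ppm1e (12.2), Actn4 (11.9), Por (11.2) and Cux1 (11.0), 0.820 kb from Ankra2 (11.6), and on chromosome 8 at 123 kb from any gene (10.8). Of these 12, the member inside Ppm1e stood farthest from the vehicle list, at 47411 bp, while a Kmt2c-deleted HPC region lay 9.97 kb away. A further member of high value, inside Thada with a fold enrichment of 17.3 and a −log10 p of 574, lay within 1 kb of regions of all 5 other lists and was chosen after its value was seen.

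At gene ends the member of highest −log10 p, 115, stood at chr17:44133858-44134616, 0.145 kb from an end of Clic5, a chloride channel family gene, with a fold enrichment of 7.48. After it came Ankra2 (114), Med13 of the Mediator complex (79.1), Prss22 (73.2), Ugt1a6b (59.4), Scd4, a fatty acid desaturase (57.6), Necap1 (55.8), Sec23a (53.9), Ang (52.3) and Snx20 (51.9). The members at Sec23a and Ang had fold enrichments of 2.66 and 2.49 and lay 0.153 and 0.0640 kb from a vehicle region. The widest member, 1355 bp from 5 rows of the list, stood 2.49 kb from Ttc27, and the next were inside Skap1 (1304 bp), inside Casz1 (1219 bp), 67.1 kb from Lao1 (1154 bp) and inside Snx20 (1153 bp).

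How many members there are depended on how strong a region had to be. With the weakest 25% of every list removed, 923 regions were found only after 5-fluorouracil and 5160 only with vehicle. When every list was cut to its 40000 strongest regions, 1000 were found only after 5-fluorouracil, or 2.50% (2.35 to 2.66), and 581 only with vehicle, or 1.45% (1.34 to 1.57), so the order of these counts turned round. Of those 1000, 12 were members by the full lists, and the remainder matched a weaker region elsewhere. The uninjected lists had higher shares at this cut: 3.15% in Kmt2c-deleted HSC, 3.47% in wild-type HPC, 4.43% in wild-type HSC and 4.54% in Kmt2c-deleted HPC. The cut was unlike in strength between lists. The weakest region kept had a −log10 p of 119 after 5-fluorouracil, 151 with vehicle and 4.84 in wild-type HSC.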

How the data were processed

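ATAC-seq was carried out on 18 samples in 6 groups, and 1 deposited peak list per group was used. Per the submitters' processing notes, Bowtie2, MACS2 and the mouse build mm10 (GRCm38) were used. Not given in the sources used here are their versions, any filters and the way samples were combined. RNA stands in the labels where an assay of DNA would name DNA. Per row, the authors deposited a fold enrichment over background, a −log10 p and a −log10 q, which grow with depth, and a summit offset. Read depth is unknown.

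Overlapping rows were merged, keeping the highest value of each, and regions were compared at 1 bp with Python 3.11.15, numpy 2.4.6 and pandas 2.3.3, tested on simulated data. A group had 1 list, so nothing was modelled and no p-value was computed. Genes came from a RefSeq table of GRCm38.p6 without strand (21883 protein-coding genes), assigned by the nearest body within 100 kb, with a gene end within 1 kb read on either side. Start windows came from RefSeq (32851 windows of 27025 genes). Of 520 listed symbols, 6 did not match.

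Genes named were the 12 with most members, those nearest to the 12 members of highest fold with no other list within 1 kb, the 10 gene-end members of highest −log10 p, the 5 widest, and up to 4 per gene list, and some of these are not reported here. Chromosome Y was left out of these. The members, lists, motifs and settings were chosen with earlier results of these data known.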

Additional observations from a re-analysis of the deposited data

How the results depend on the processing

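The number of members moved most with the strength required and with the vehicle list, and less with the other choices. Against 2598, there were 143 with the weakest 25% of the 5-fluorouracil list removed, 923 with the weakest 25% of every list removed, 1000 among the 40000 strongest regions of every list, 13149 without the vehicle list and 4002 when absence from the vehicle list alone was asked. Leaving out any of the other 4 lists, a q-value under 0.05 (added after the data were seen), or the other overlap rules kept it within 1.5 times. Among the overlap rules it was 3666 for windows of 200 bp around summits and 2001 with no other region within 1 kb. The share at a gene end, 6.77%, was 4.30% with no other region within 1 kb, 13.0% for windows of 200 bp around summits, 2.80% without the weakest 25% of the 5-fluorouracil list, 14.0% among the 40000 strongest, 11.0% without the vehicle list, 2.81% with a limit of 200 bp and 15.3% with one of 3 kb. The share inside a gene, 57.9%, was 60.3% for summit windows and 55.1% without the weakest 25% of every list. The median distance, 3.59 kb, was 5.63 kb with no other region within 1 kb, 1.79 kb for summit windows and 5.94 kb among the 40000 strongest. Some of these follow from the rule itself (a minimum distance, narrower windows, fewer regions), and for the rest the cause was not tested. Of 518 recomputed member counts of the 37 named genes with 2 or more members, 365 stayed within 1.5 times. Ezh2 had 4 members under each setting except the 3 that removed weak regions, where it had 0, and Sox5 had 2, 2 and 3 there. Of the 55 named genes with 1 member, 17 still had one without the weakest 25% of the 5-fluorouracil list, 20 without the weakest 25% of every list and 10 among the 40000 strongest. No paired analysis was possible because each group has 1 pooled list, and for the same reason no replicate could be left out. Read depth, which is unknown, limits every count of absence.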

Other observations

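Of 1005 annotated microRNA hairpins, 119 overlapped some region of the 5-fluorouracil list and 0 overlapped a member. Members are 3.64% of that list and narrower than its other regions, at a median of 336 bp against 651 bp. The 0 is therefore not read as a result about the members. Hairpins within 1 kb of a member numbered 3.

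Many members share both deposited values exactly. Of the 2598 members, 1487, or 57.2%, had the same fold enrichment and −log10 p as at least 1 other member, and the largest such set held 67 regions at 4.29 and 20.6. Among the other regions of the 5-fluorouracil list the share was 31.5%. These shares were not matched for strength, and members were weaker, with a median −log10 p of 28.0 against 159.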
